A study of Mus musculus with 90 samples.

Results

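ISG15 is a small ubiquitin-like protein that is joined to other proteins by its own enzyme chain, and 6 mouse genes of this chain and of the related modifier FAT10 were followed through acute and chronic IFNγ exposure in 2 tumour cell lines. The genes were Isg15, Uba7, Ube2l6, Herc6, Usp18 and Ubd. They were chosen by name, as the 6 of 53697 rows of the count table whose Ensembl identifiers map to these symbols, and each symbol matched 1 row. The names were picked with earlier results of these data known. All 6 passed the filter on low counts in YUMM2.1 cells. In CT26 cells 5 passed it, and Ubd, with 1 read in 45 samples, was not tested. The filter used all samples of a line together. Isg15, Usp18 and Ubd in YUMM2.1 and Uba7 in CT26 passed only through groups with IFNγ. Shares of members called in these groups are therefore tilted towards calls.

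Conjugation of ISG15 follows the order of ubiquitination. Uba7 encodes the E1 enzyme that activates ISG15, Ube2l6 encodes the E2 enzyme that carries it, and Herc6 encodes the E3 ligase that attaches most ISG15 in mouse cells. Usp18 encodes the protease that takes ISG15 off again, and its protein also binds the type I interferon receptor and dampens signalling from it. Ubd encodes FAT10, a modifier with a pair of ubiquitin-like domains that sends proteins to the proteasome and that is induced by IFNγ together with TNF. All 6 are known as interferon-stimulated genes. FAT10 is activated by Uba6 and carried by Ube2z, so it shares the interferon response but not the enzymes of ISG15.

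The lines were YUMM2.1, a mouse melanoma line, and CT26, a mouse colon carcinoma line, each cultured with 50 IU/mL IFNγ or with BSA (0 IU/mL) for up to 3 weeks. Each line had 15 groups of 3 samples. Controls were taken at 0, 1, 2 and 3 weeks. Naive cells were given IFNγ at 0 weeks and taken after 2 h or 24 h, and cells kept in IFNγ for 1, 2 or 3 weeks were taken without rechallenge or 2 h or 24 h after fresh IFNγ. Every group of a line came from that 1 line, with no second melanoma or colon line. The samples are called triplicate experiments, and the study describes its replicates in general as independent biological ones. The labels do not tie single samples to separate cultures or days, so p-values measure only the spread between these samples, part of which may be technical.

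On GRCm38, Isg15 lies at chr4:156199424-156200818 on the minus strand, Uba7 at chr9:107975505-107984060, Ube2l6 at chr2:84798828-84810335, Herc6 at chr6:57581000-57664632, Usp18 at chr6:121245906-121270917 and Ubd at chr17:37193892-37196095, the last 5 on the plus strand. All are annotated as protein-coding. Uba7 overlaps Gm20661 and Herc6 overlaps Gm45193 on the same strand. Of the 7133 distinct 31-base words of Uba7 transcripts, 427 also occur in Gm20661, and of the 9344 of Herc6, 1183 occur in Gm45193, so a part of their reads could have been split or shared. Isg15 shares 74 of 726 words with the gene model AC151275.1, Ube2l6 shares 98 of 2024 with 2700054A10Rik, and Usp18 and Ubd share 0.

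RefSeq promoters (build GRCm38.p6, 250 bases before the start to 50 after it) were matched for 5 of the 6 genes, all but Usp18. Both strands were searched for GAAANNGAA, a letter pattern like the interferon-stimulated response element of interferon-regulated promoters. It was present in 1 of the 5 promoters, that of Isg15, against 9.8% of all 27025 genes with a promoter. The Isg15 promoter held 3 matches that overlap one another, with first bases at -78, -72 and -66 from the start. The 250 bases before the start are shown for Isg15, which alone held a match, and for Ubd, which alone among the 6 was not tested in CT26. Capitals mark the matches, each is written 5′ to 3′ on the strand of its gene, and the positions are chr4:156200819-156201068 on the minus strand for Isg15 and chr17:37193642-37193891 on the plus strand for Ubd.
Isg15: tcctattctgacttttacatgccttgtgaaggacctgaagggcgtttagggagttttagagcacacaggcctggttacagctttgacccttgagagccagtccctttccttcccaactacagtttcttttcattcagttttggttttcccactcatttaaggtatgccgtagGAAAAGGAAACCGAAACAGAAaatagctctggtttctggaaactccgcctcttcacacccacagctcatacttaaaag
Ubd: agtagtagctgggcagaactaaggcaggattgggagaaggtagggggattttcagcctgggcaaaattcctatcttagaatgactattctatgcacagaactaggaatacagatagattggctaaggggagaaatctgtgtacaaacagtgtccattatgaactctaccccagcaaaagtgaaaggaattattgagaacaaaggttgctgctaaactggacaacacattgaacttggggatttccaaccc
A match describes letters and is not a measured binding site, and a promoter without one only lacks these letters in this window.

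Total counts per sample lay between 274719 and 3161276 in YUMM2.1, while CT26 samples ranged from 295157 to 2205285. In YUMM2.1 1 sample and in CT26 2 samples held under 25% of the median of their line, each of them replicate 3 of IFNγ without rechallenge (YUMM2.1 at 3 weeks, CT26 at 1 and 3 weeks). The third YUMM2.1 sample after 1 week of IFNγ, of 484092 counts, also stood apart from its partners in Ube2l6. Levels are given as CPM, the counts of a gene scaled to a common library total with TMM factors, and 3′ counts of different genes were not compared with each other. The IFNγ targets Irf1 and Gbp2 were each higher after 2 h and 24 h of IFNγ in naive cells of both lines, and Psmb8 after 24 h. Of the melanocyte markers, Sox10 was read in all 45 YUMM2.1 samples (12 to 54.4 CPM), while Mlana had 1 read and Pmel 19 reads in the line. The other 3, Dct, Tyr and Mitf, had 56, 15 and 144 reads in YUMM2.1 and 127, 21 and 147 in CT26, with no fewer reads in CT26 for any of the 3. Of the epithelial markers, Krt20 and Krt18 were read in all 45 CT26 samples, while Epcam and Cdh1 had 0 reads. Of the immune markers, the T cell gene Cd3e had 0 reads in either line. Cd68, a macrophage marker, was read in 43 of 45 YUMM2.1 and 43 of 45 CT26 samples (451 and 159 reads), Ptprc, a leukocyte marker, in 11 and 31 (11 and 67 reads), and Lyz2, of macrophages, in 24 and 17 (61 and 26 reads). In bulk RNA, fewer responding cells and less RNA per cell cannot be told apart.

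Before IFNγ, the lines differed in 4 of the 6 genes. In the 0-week controls Isg15 had 0, 0 and 0.644 CPM in YUMM2.1, against 2.84, 2.5 and 2.97 CPM in CT26. Usp18 had no read in any of the 3 YUMM2.1 controls and 7.09, 8.74 and 5.35 CPM in CT26. Ube2l6 had 12, 7.33 and 8.37 CPM in YUMM2.1, against 76.6, 55 and 60.0 CPM in CT26, so the modifier, its E2 enzyme and its protease were all lower in the melanoma line, with no overlap between the groups. Uba7, the E1 gene, lay the other way in most samples, at 4.91, 0 and 9.01 CPM in YUMM2.1, against 0.709, 1.25 and 0 CPM in CT26, where the YUMM2.1 sample without a read fell inside the CT26 range. Herc6 levels overlapped, at 7.09, 8.55 and 14.8 CPM in YUMM2.1, against 10.6, 8.12 and 6.54 CPM in CT26, and Ubd had no read in the 6 samples.

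Fitted on both lines together, the difference YUMM2.1 minus CT26 was -2.88 ± 0.29 (log2, SE) for Ube2l6 (edgeR adjusted p = 7.6e-16), -3.28 ± 1.23 for Isg15 (edgeR adjusted p = 0.00228) and 2.72 ± 0.89 for Uba7 (edgeR adjusted p = 0.00165). The Uba7 count ratio was 7.57, with a counting interval of 2.29 to 39.4, since the CT26 controls held 3 reads in all. For Usp18, with YUMM2.1 at 0 and a floor of 3 counts per library, the level was at least 3.35-fold lower in YUMM2.1 (edgeR adjusted p = 1.3e-07). Herc6 gave 0.12 ± 0.32 (edgeR adjusted p = 0.801). These 4 calls stand beside 46% of the 10339 genes tested, so a difference between the untreated lines was common. The Isg15 call was lost without the first replicates (adjusted p = 0.0648) and that of Uba7 without the third (adjusted p = 0.219).

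Over 3 weeks of culture without IFNγ none of the members was called. The 3-week and 0-week controls gave 0 of 6 in YUMM2.1 and 0 of 5 in CT26 by edgeR and by DESeq2, against 0.521% and 0.916% of all genes by edgeR. At an unadjusted p under 0.05 the numbers were 1 in YUMM2.1 and 2 in CT26, against 799 of 9589 and 1025 of 8516 genes. Ube2l6 in CT26 had 97.4, 103 and 73.2 CPM at 3 weeks against 76.6, 55 and 60.0 CPM at the start, a log2 difference of 0.51 ± 0.16 (edgeR adjusted p = 0.128). Usp18 in YUMM2.1 had no read in the controls of 0, 1 and 3 weeks and 1 read in those of 2 weeks.

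**Figure D1:**
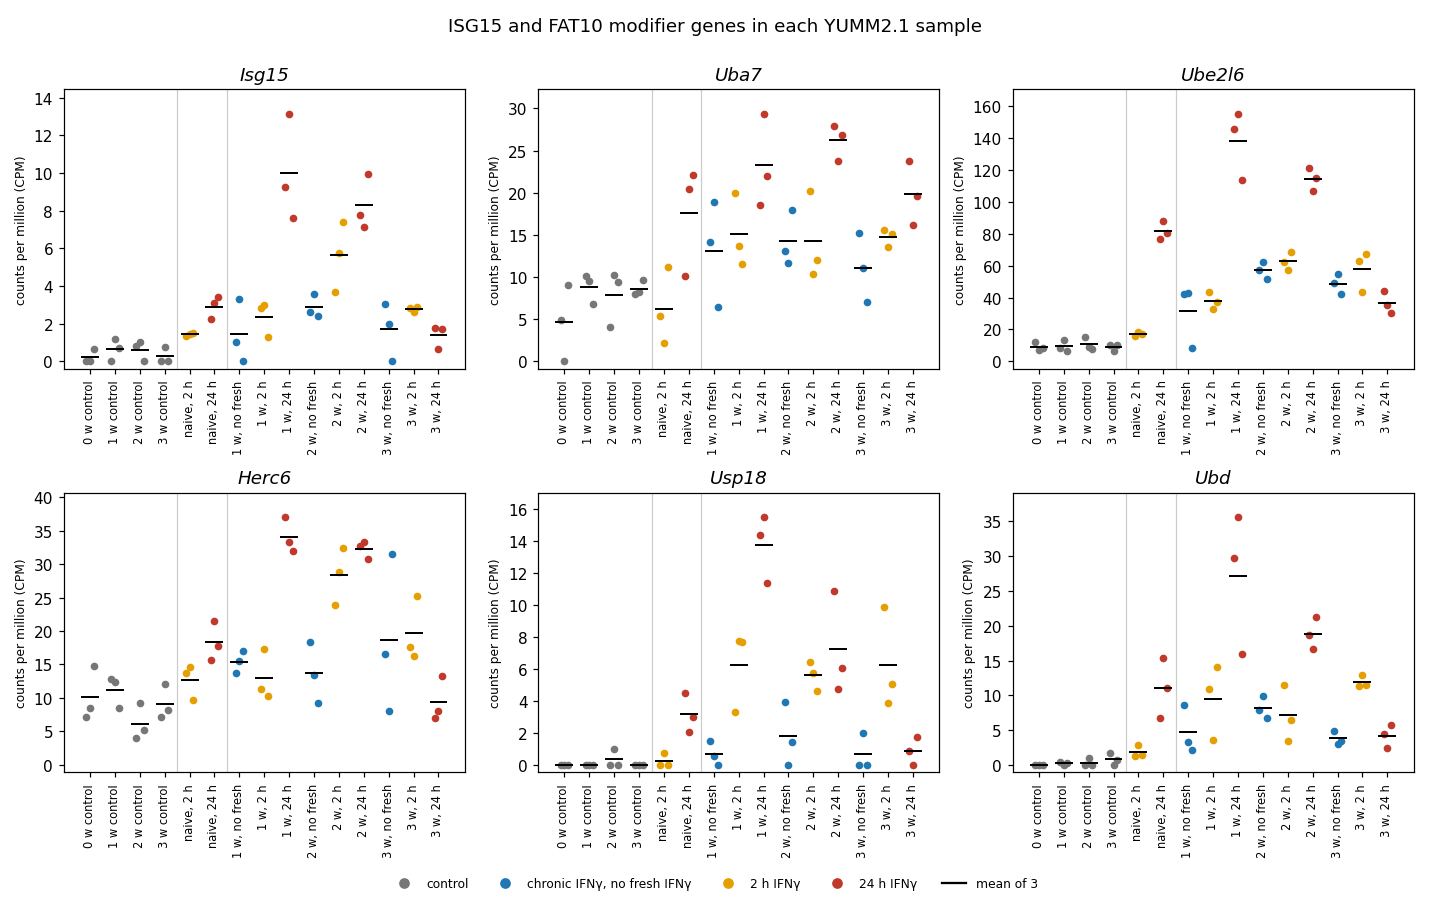
CPM of each gene in every YUMM2.1 sample, by group along the horizontal axis, with points for the 3 samples and a bar for their mean. Grey points are controls, and in 5 of the 6 panels, all but Uba7, the highest means belong to 24 h of fresh IFNγ after 1 week, followed by 24 h after 2 weeks, while the means at 3 weeks of IFNγ lie below these 2 groups.

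**Figure D2:**
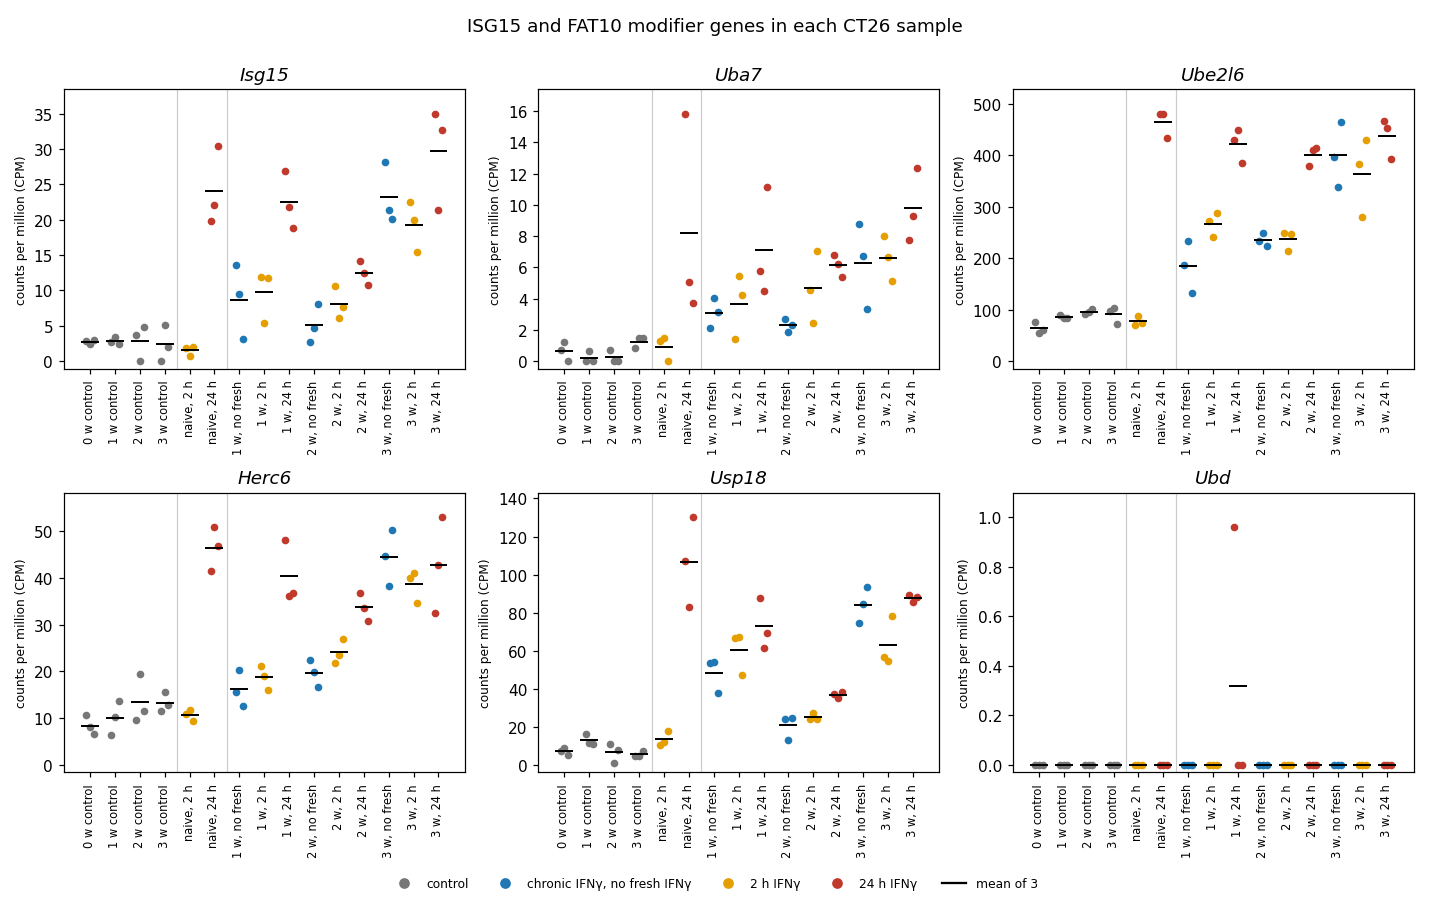
CPM of each gene in every CT26 sample, by group along the horizontal axis, with points for the 3 samples and a bar for their mean. In the 5 panels other than Ubd, which had 1 read, the means of all 3 groups at 3 weeks of IFNγ lie above those of the 4 control groups, with or without fresh IFNγ.

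The first exposure asked how naive cells respond to 24 h of IFNγ. In CT26 the whole set of 5 tested genes rose, against 2.04% of all 8516 genes tested, and in YUMM2.1 Uba7, Ube2l6 and Ubd rose, 3 of 6, against 0.886%. The modifier Isg15 had 19.8, 22.1 and 30.5 CPM in CT26 after 24 h against 2.84, 2.5 and 2.97 CPM in the controls, and every treated sample lay above every control. Its log2 fold change was 3.14 ± 0.50 (SE, edgeR adjusted p = 2.4e-06), 8.79-fold. In YUMM2.1 the treated values were 2.25, 3.07 and 3.39 CPM, from 2, 3 and 8 reads, against 1 read in the 3 controls. All 3 treated samples lay above the controls there too, but the count ratio of 12.9 had a counting interval of 1.94 to 550.2 and the test did not pass (edgeR adjusted p = 0.183).

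Ubd, the FAT10 gene, went from no read in the YUMM2.1 controls to 6.74, 15.4 and 11 CPM after 24 h. Against the floor of 3 counts per library this is at least 4.58-fold higher (edgeR adjusted p = 1.3e-05). In CT26 Ubd had no read in the 3 naive samples after 24 h, and the floor of 3 counts allows up to 5.94, 5.1 and 2.23 CPM in these libraries.

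The E1 gene Uba7 had 10.1, 20.5 and 22.1 CPM after 24 h in YUMM2.1 against 4.91, 0 and 9.01 CPM, with all treated samples above the controls, and a log2 fold change of 1.77 ± 0.46 (edgeR adjusted p = 0.028). In CT26 it had 15.8, 5.1 and 3.72 CPM, from 8, 3 and 5 reads, against 3 reads in the controls, a count ratio of 10.3 (counting interval 2.94 to 55, edgeR adjusted p = 0.00687). The E2 gene Ube2l6 had the most reads of the set and the smallest standard errors. In YUMM2.1 it went from 12, 7.33 and 8.37 to 76.4, 88.1 and 80.6 CPM, and in CT26 from 76.6, 55 and 60.0 to 481, 481 and 433 CPM. The log2 fold changes were 3.07 ± 0.30 (edgeR adjusted p = 8.8e-12) and 2.86 ± 0.15 (edgeR adjusted p = 5.2e-19), or 8.41-fold and 7.28-fold.

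The E3 gene Herc6 had 41.6, 51 and 46.8 CPM after 24 h in CT26 against 10.6, 8.12 and 6.54 CPM, and its log2 fold change of 2.47 ± 0.26 passed (edgeR adjusted p = 2.4e-10). In YUMM2.1 the values were 15.7, 21.5 and 17.8 CPM against 7.09, 8.55 and 14.8 CPM, without overlap, and the log2 fold change of 0.83 ± 0.35 did not pass (edgeR adjusted p = 0.552). The protease gene Usp18 gave the largest fitted change of the 5 genes in CT26, from 7.09, 8.74 and 5.35 to 107, 83.2 and 130.1 CPM, a log2 fold change of 3.93 ± 0.30 (edgeR adjusted p = 2.0e-15) or 15.3-fold. In YUMM2.1 it had 4, 2 and 7 reads (4.49, 2.05 and 2.97 CPM) against 0 in the controls, at least 1.32-fold higher, and did not pass (edgeR adjusted p = 0.0883). The median log2 fold change was 3.17 over the 6 YUMM2.1 members, or 1.98 with Usp18 and Ubd at their lower bounds, and 0.02 over all genes tested. In CT26 these medians were 3.14 over 5 members and -0.02 over all genes.

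Of the Uba7 calls, that in YUMM2.1 was lost whichever replicate number was left out (edgeR adjusted p = 0.27, 0.388 and 0.132 without replicate 1, 2 or 3) and that in CT26 without replicate 1 or 2 (edgeR adjusted p = 0.601 and 0.0528).

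At 2 h none of the 6 genes was called in either line, in naive or in chronically exposed cells. edgeR and DESeq2 each called 0 members in all 8 comparisons at 2 h. The share of all genes called by edgeR was 0.24% in naive YUMM2.1 cells and 0.615%, 0.428% and 1.08% after 1, 2 and 3 weeks of IFNγ, and 0.235%, 0.376%, 0.305% and 0.0117% in CT26. At an unadjusted p under 0.05 there were 3, 1, 2 and 2 members in YUMM2.1, against 348, 1065, 563 and 1156 of 9589 genes. CT26 had 1, 1, 0 and 0 members there, against 310, 695, 605 and 618 of 8516 genes. In naive YUMM2.1 cells Ubd had 3, 4 and 2 reads (1.33, 2.93 and 1.48 CPM) at 2 h against 0 in the controls (edgeR adjusted p = 0.558). Ube2l6 had 16, 18.3 and 17.1 CPM, above all 3 controls (12, 7.33 and 8.37 CPM), with a log2 fold change of 0.81 ± 0.33 (edgeR adjusted p = 1). In naive CT26 cells Usp18 had 10.3, 11.8 and 18 CPM against 7.09, 8.74 and 5.35 CPM, again without overlap, at 0.92 ± 0.34 (edgeR adjusted p = 1).

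In chronically exposed YUMM2.1 cells, Usp18 was the member with the largest fitted value at 2 h of rechallenge in each of the 3 weeks. It had 3.32, 7.75 and 7.68 CPM at 2 h after 1 week against 1.52, 0.554 and 0 CPM without rechallenge, 6.44, 5.75 and 4.63 against 3.92, 0 and 1.45 CPM after 2 weeks, and 9.87, 3.89 and 5.05 against 0, 2 and 0 CPM after 3 weeks. The rechallenged samples lay above all samples without rechallenge each time, 3 of 3 in the 3 weeks, and the groups came from 26, 24 and 27 reads against 4, 9 and 2. The log2 fold changes were 2.61 ± 0.95 after 1 week and 1.55 ± 0.77 after 2 weeks, and the count ratio after 3 weeks was 9.07 (counting interval 2.28 to 78.7). None passed (edgeR adjusted p = 0.215, 0.823 and 0.16). Herc6 after 2 weeks had 23.9, 28.8 and 32.4 against 18.3, 13.5 and 9.21 CPM (1.05 ± 0.31, edgeR adjusted p = 0.195), and Ubd after 3 weeks 11.3, 13 and 11.5 against 4.89, 3 and 3.5 CPM (1.55 ± 0.60, edgeR adjusted p = 0.244). In both, 3 of 3 rechallenged samples lay above all samples without rechallenge, and neither passed. How many of all genes separate in this way was not counted, so the separations of Usp18, Herc6 and Ubd are descriptions. In CT26 Ube2l6 at 2 h after 1 week had 272, 241 and 289 CPM against 186, 234 and 133 CPM, with a log2 fold change of 0.49 ± 0.15 that did not pass (edgeR adjusted p = 0.208) but did with library totals as the only scaling (adjusted p = 0.0147) and without replicate 2 (adjusted p = 0.0371).

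**Figure D3:**
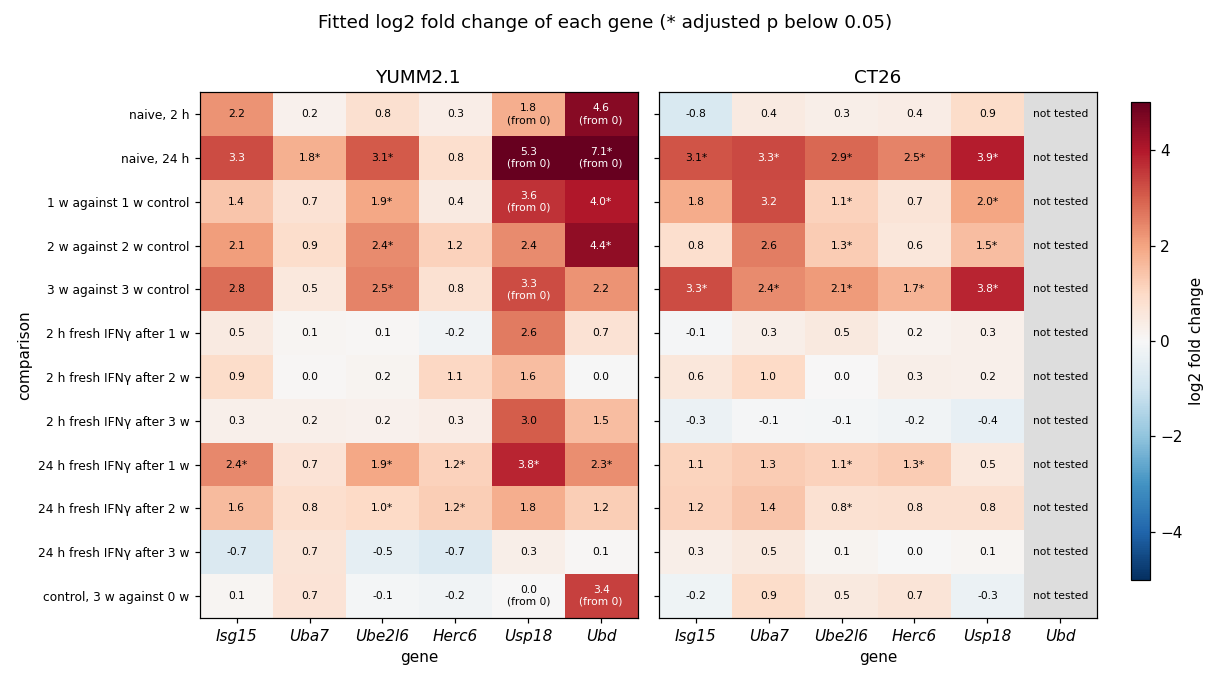
Fitted log2 fold change of each gene (columns) in each comparison (rows) for YUMM2.1 on the left and CT26 on the right, with red for higher, blue for lower and an asterisk for an adjusted p below 0.05. Cells marked as starting from 0 have a comparison group without a read, so their values depend on the prior count. Asterisks stand in the naive 24 h row, the chronic rows and the rows of 24 h after 1 and 2 weeks. None stand in the 2 h rows, the row of 24 h after 3 weeks or the control row.

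Chronic exposure without rechallenge kept part of the set raised. Against controls of the same week, YUMM2.1 cells had 2, 2 and 1 of 6 genes higher after 1, 2 and 3 weeks, against 0.73%, 1.12% and 0.97% of all genes. CT26 cells had 2, 2 and 5 of 5 higher, against 0.728%, 1.67% and 7.23%. None was lower. Ube2l6 was higher in all 6 comparisons, Ubd in YUMM2.1 at 1 and 2 weeks, and Usp18 in CT26 at all 3 weeks, while Isg15, Uba7 and Herc6 passed in CT26 at 3 weeks and in none of the other 5 comparisons. In CT26 at 3 weeks the median log2 fold change was 2.36 over the 5 members and 0.02 over all genes.

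Ube2l6 in YUMM2.1 had 42.5, 42.7 and 8.52 CPM after 1 week, 57.5, 62 and 51.4 CPM after 2 weeks and 48.9, 55 and 42.1 CPM after 3 weeks, where the highest of the 12 controls had 15.4 CPM. The third 1-week sample lay inside the control range, from 4 reads in a library of 484092 counts, and the other 8 exposed samples lay above every control. The log2 fold changes were 1.95 ± 0.28, 2.37 ± 0.31 and 2.47 ± 0.28 (edgeR adjusted p = 1.5e-06, 5.2e-08 and 6.9e-09). In CT26 the gene went from 89.9, 84.8 and 83.3 CPM in the 1-week controls to 186, 234 and 133 CPM after 1 week of IFNγ, 234, 249 and 224 CPM after 2 weeks and 396, 339 and 465 CPM after 3 weeks. Without replicate 3 of every group the 1-week value in YUMM2.1 was 1.95 (edgeR adjusted p = 8.2e-06). The log2 fold changes in CT26 were 1.15 ± 0.16, 1.28 ± 0.15 and 2.12 ± 0.15 (edgeR adjusted p = 2.2e-06, 4.0e-08 and 8.1e-15).

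Usp18 in CT26 had 53.5, 53.9 and 37.9 CPM after 1 week against 16.5, 11.5 and 11.2 CPM in controls, 24.1, 13.3 and 24.8 against 11.1, 1.15 and 7.71 CPM after 2 weeks, and 74.6, 84.5 and 93.6 against 4.91, 4.43 and 7.37 CPM after 3 weeks. Exposed and control samples did not overlap in any week. The log2 fold changes were 1.98 ± 0.28, 1.54 ± 0.36 and 3.81 ± 0.33 (edgeR adjusted p = 2.2e-06, 0.00461 and 8.2e-14), and the level was lowest at 2 weeks and highest at 3. In YUMM2.1 Usp18 had 4, 9 and 2 reads over the 3 samples of each week and did not pass. Ubd in YUMM2.1 had 8.6, 3.33 and 2.13, then 7.84, 9.89 and 6.78, then 4.89, 3 and 3.5 CPM in the 3 weeks, each sample above every control of its week. Its count ratios at 1 and 2 weeks were 21.6 (counting interval 5.36 to 188, edgeR adjusted p = 0.00168) and 26.6 (counting interval 4.48 to 1077, edgeR adjusted p = 0.00287), and the 3-week log2 fold change of 2.25 ± 0.80 did not pass (edgeR adjusted p = 0.194).

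At 3 weeks in CT26, Isg15 had 28.1, 21.4 and 20.1 CPM against 0, 5.17 and 1.97 CPM, a log2 fold change of 3.27 ± 0.53 (edgeR adjusted p = 2.3e-06). Herc6 had 44.8, 38.3 and 50.2 CPM against 11.5, 15.5 and 12.8 CPM, at 1.71 ± 0.24 (edgeR adjusted p = 9.4e-07). Uba7 had 8.78, 6.76 and 3.34 CPM against 0.818, 1.48 and 1.47 CPM, at 2.36 ± 0.74 (edgeR adjusted p = 0.0263). Every exposed sample of these 3 genes lay above every control. In YUMM2.1 at 3 weeks, Isg15 had 3.05, 2 and 0 CPM against 0, 0.78 and 0 CPM and Herc6 16.5, 8.01 and 31.5 against 7.1, 12.1 and 8.27 CPM, both with overlap, and neither passed (edgeR adjusted p = 0.189 and 0.419). The Uba7 call in CT26 was lost whichever replicate number was left out (edgeR adjusted p = 0.312, 0.221 and 0.052), the Ubd calls in YUMM2.1 without replicate 1 or 3 (at 1 week 0.576 and 0.0523, at 2 weeks 0.16 and 0.133), and the Usp18 call at 2 weeks without replicate 3 (0.144).

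After the levels were seen, 3 weeks of IFNγ were compared with 2 weeks directly. In CT26 Isg15, Ube2l6, Herc6 and Usp18 were higher at 3 weeks, 4 of 5, against 3.17% of all genes. All 5 members had an unadjusted p under 0.05, as did 1406 of the 8516 genes tested. Usp18 differed by 1.95 ± 0.25 (edgeR adjusted p = 4.1e-07), Isg15 by 2.1 ± 0.45 (0.00177), Herc6 by 1.16 ± 0.23 (0.00148) and Ube2l6 by 0.74 ± 0.14 (8.1e-04). Uba7, at 1.57 ± 0.68, did not pass (edgeR adjusted p = 0.193). In YUMM2.1 no member was called by edgeR or DESeq2, against 0.073% of all genes by edgeR. At an unadjusted p under 0.05 there were 0 members, against 758 of 9589 genes. Ubd was lower in each 3-week YUMM2.1 sample than in any 2-week sample (-0.98 ± 0.61, edgeR adjusted p = 0.702). The third CT26 sample at 3 weeks held 295157 counts, and all 4 calls remained without the low-depth samples. Without replicate 1, 1 of the 4 calls remained, that of Usp18, and the Herc6 call was lost whichever number was left out (edgeR adjusted p = 0.0554, 0.0529 and 0.0502).

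Rechallenge for 24 h asked whether fresh IFNγ adds to the chronic level. In YUMM2.1 it raised 5 of 6 genes after 1 week, 2 of 6 after 2 weeks and 0 of 6 after 3 weeks, against 1.42%, 0.615% and 0% of all genes. Isg15, Usp18 and Ubd passed the filter in YUMM2.1 through groups with IFNγ, among them those compared here, so these shares are tilted towards calls. Isg15 had its highest means in the line at 24 h after 1 and 2 weeks. In CT26 it raised 2, 1 and 0 of 5, against 1.32%, 0.658% and 0%. Ube2l6 was among them at 1 and 2 weeks in both lines. At 1 week the median log2 fold change was 2.12 over the 6 members and 0.00 over all genes in YUMM2.1, and 1.15 over 5 members and 0.01 over all genes in CT26. The samples without rechallenge serve both here and in the chronic comparisons, so the sets of values are not independent.

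In YUMM2.1 after 1 week, Isg15 went from 1.01, 3.33 and 0 to 9.24, 13.1 and 7.6 CPM (2.40 ± 0.68, edgeR adjusted p = 0.0419). Ubd went from 8.6, 3.33 and 2.13 to 29.8, 35.6 and 15.9 CPM (2.31 ± 0.50, edgeR adjusted p = 0.00284), and Ube2l6 from 42.5, 42.7 and 8.52 to 146, 155 and 114 CPM (1.93 ± 0.23, edgeR adjusted p = 2.3e-08). Herc6 went from 13.7, 15.5 and 17 to 37, 33.2 and 31.9 CPM (1.17 ± 0.32, edgeR adjusted p = 0.0428). Without replicate 3, and so without the low 1-week sample, the Ube2l6 value was 1.82 (edgeR adjusted p = 8.3e-07). All of these rechallenged samples lay above the samples without rechallenge. Usp18 went from 1.52, 0.554 and 0 to 14.4, 15.5 and 11.4 CPM (3.79 ± 0.93, edgeR adjusted p = 0.00374), its highest level in the line. Uba7 alone did not pass, at 18.5, 29.4 and 22 CPM against 14.2, 18.9 and 6.39 CPM (0.68 ± 0.39, edgeR adjusted p = 0.628). The Isg15, Herc6 and Usp18 calls were lost whichever replicate number was left out (edgeR adjusted p = 0.605, 0.188 and 0.25 for Isg15, 0.605, 0.227 and 0.0728 for Herc6 and 0.0863, 0.131 and 0.0812 for Usp18), and the Ubd call without replicate 2 (0.144).

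After 2 weeks in YUMM2.1, Ube2l6 went from 57.5, 62 and 51.4 to 121, 107 and 115 CPM (1.01 ± 0.21, edgeR adjusted p = 0.00704) and Herc6 from 18.3, 13.5 and 9.21 to 32.6, 33.3 and 30.7 CPM (1.25 ± 0.32, edgeR adjusted p = 0.0446). Both calls were lost whichever replicate number was left out (edgeR adjusted p = 0.511, 0.051 and 0.0657 for Ube2l6 and 0.275, 0.335 and 0.386 for Herc6). In CT26 after 1 week, Ube2l6 went from 186, 234 and 133 to 431, 449.7 and 385 CPM (1.15 ± 0.15, edgeR adjusted p = 4.2e-07) and Herc6 from 15.7, 20.2 and 12.6 to 48.1, 36.1 and 36.9 CPM (1.26 ± 0.25, edgeR adjusted p = 0.00134). After 2 weeks Ube2l6 went from 234, 249 and 224 to 380.0, 410.2 and 415 CPM (0.77 ± 0.14, edgeR adjusted p = 4.3e-04). Without replicate 1 the CT26 calls of Herc6 at 1 week and Ube2l6 at 2 weeks were lost (edgeR adjusted p = 0.208 and 0.125). Usp18 in CT26, already at 53.5, 53.9 and 37.9 CPM after 1 week, reached 87.5, 61.7 and 69.4 CPM and did not pass (0.52 ± 0.23, edgeR adjusted p = 0.426).

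After 3 weeks no gene of either table was called at 24 h by edgeR, and DESeq2 called 1 gene in YUMM2.1 and 0 in CT26, with no member in either. At an unadjusted p under 0.05 there were 351 genes in YUMM2.1 and 439 in CT26, with 0 and 0 members. The levels behind this were as follows. In CT26, Usp18 had 89.4, 85.5 and 88.3 CPM with and 74.6, 84.5 and 93.6 CPM without rechallenge, Ube2l6 467, 452 and 393 and 396, 339 and 465 CPM, and Isg15 35, 21.4 and 32.7 and 28.1, 21.4 and 20.1 CPM, so the groups overlapped and lay above the 3-week controls. In YUMM2.1, Ube2l6 had 44, 35.6 and 30.5 CPM with and 48.9, 55 and 42.1 CPM without rechallenge, Ubd 4.4, 2.5 and 5.75 and 4.89, 3 and 3.5 CPM, and Isg15 1.76, 0.624 and 1.73 and 3.05, 2 and 0 CPM. These also overlapped, and their means lay under those of naive cells after 24 h. Uba7 was the one YUMM2.1 member with every rechallenged sample above those without, at 23.8, 16.2 and 19.6 against 15.3, 11 and 7.01 CPM. The fitted 24 h changes at 3 weeks ran from -0.73 for Isg15 to 0.65 for Uba7 in YUMM2.1 and from -0.01 for Herc6 to 0.49 for Uba7 in CT26.

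**Figure D4:**
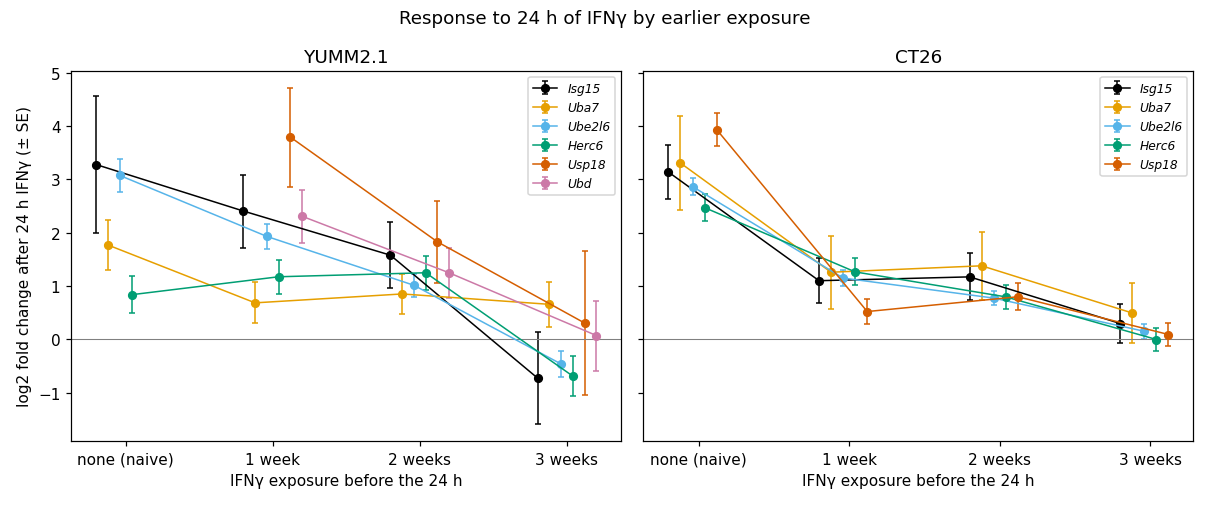
Log2 fold change after 24 h of IFNγ with its standard error, by the length of earlier IFNγ exposure, for each tested gene and both lines (values against a group without a read are left out). In CT26 the 5 points lie between 2.47 and 3.93 in naive cells and between -0.01 and 0.49 after 3 weeks, and in YUMM2.1 all 6 lie within 1 of 0 after 3 weeks.

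The change of the 24 h response itself, after 3 weeks against naive cells, was tested as an interaction. In CT26 it was lower for 4 of 5 genes, against 1.2% of all genes: Usp18 (-3.84 ± 0.37, edgeR adjusted p = 3.6e-11), Ube2l6 (-2.71 ± 0.21, 9.6e-14), Herc6 (-2.47 ± 0.34, 6.0e-07) and Isg15 (-2.84 ± 0.62, 0.00203). Uba7 had -2.81 ± 1.05 and did not pass (edgeR adjusted p = 0.253). In YUMM2.1 it was lower for Ube2l6 (-3.54 ± 0.39, edgeR adjusted p = 2.2e-09) and for Ubd (edgeR adjusted p = 0.00247), 2 of 6, against 0.615% of all genes. The Ubd estimate starts from naive controls without a read, so its size depends on the prior count. The Ubd call was lost without replicate 1 or 3 (edgeR adjusted p = 0.301 and 0.0969), as was that of Isg15 in CT26 (0.0904 and 0.119). The 2 h response changed for 0 members in either line by edgeR and DESeq2, against 0.115% of all genes in YUMM2.1 and 0.211% in CT26. At an unadjusted p under 0.05 there were 0 and 1 members, against 648 of 9589 and 463 of 8516 genes. The 1 in CT26 was Usp18, at -1.32 ± 0.41 (edgeR adjusted p = 0.424).

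A second comparison chosen after the levels were seen set cells at 24 h after 3 weeks beside naive cells at 24 h, which asks about the level reached and not about the rise. In YUMM2.1 Ube2l6 was lower after 3 weeks, at 44, 35.6 and 30.5 CPM against 76.4, 88.1 and 80.6 CPM (-1.17 ± 0.23, edgeR adjusted p = 0.00207), 1 of 6 members against 0.813% of all genes. Isg15, Herc6, Usp18 and Ubd also had lower means after 3 weeks and did not pass (edgeR adjusted p = 0.727, 0.288, 0.595 and 0.305). The mean of Uba7 was higher after 3 weeks. Isg15 and Usp18 came from 6 and 4 reads at 24 h after 3 weeks, against 13 and 13 in naive cells at 24 h. The Ube2l6 call was lost without replicate 1 or 2 (edgeR adjusted p = 0.0991 and 0.121). In CT26 no member was called by edgeR or DESeq2, against 2.48% of all genes by edgeR. At an unadjusted p under 0.05 there were 0 members, against 1153 of 8516 genes. The fitted differences of the members in CT26 ran from -0.31 for Usp18 to 0.45 for Uba7. The check genes Irf1 and Gbp2 were lower in YUMM2.1 in the same comparison (Gbp2 108 ± 4.62 against 363 ± 27.7 CPM, mean ± SD, n = 3). Of the 5 immune markers only Cd68 passed the filter on low counts in YUMM2.1 and was tested. It was higher there by edgeR, at 15 ± 6.66 against 2.25 ± 1.95 CPM, and was not called by DESeq2. The summed level of the 5 markers ran from 10.6 to 22 CPM after 3 weeks and from 2.05 to 5.51 CPM in naive cells. It was also 8.96 to 19.5 CPM in the 3-week controls and 9.77 to 20.02 CPM after 3 weeks of IFNγ without rechallenge. Cd3e was at 0 in both groups and Ptprc at 0 after 3 weeks. The part of Cd68 in the Ube2l6 result was not tested.

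Whether the responses differed between the lines was tested directly in 1 fit of all 90 samples. No member was called by edgeR or DESeq2 for the naive 2 h, naive 24 h or 3-week response, against 0%, 0.087% and 0.106% of all genes. At an unadjusted p under 0.05 there were 1, 1 and 2 members, against 365, 848 and 664 of 10339 genes. Herc6 had the smallest adjusted p, with a difference in the naive 24 h response (YUMM2.1 minus CT26) of -1.67 ± 0.42 (edgeR adjusted p = 0.102). For Ube2l6 the difference was 0.17 ± 0.34 at 24 h and 0.30 ± 0.32 at 3 weeks (edgeR adjusted p = 0.953 and 0.959). The level Ube2l6 reached after 24 h was 81.7 ± 5.94 CPM in YUMM2.1 beside 465 ± 27.5 CPM in CT26 (mean ± SD, n = 3, each line scaled on its own). The standard errors of the 24 h difference were 1.33 for Isg15, 1.02 for Uba7 and 2.36 for Usp18, so differences of several fold were not detectable for these genes. Ubd had no read in the CT26 groups of these contrasts, so the size of its fitted difference depends on the prior count and is not given.

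The 15 groups were also put in order of their mean levels, as a description. In YUMM2.1, Ube2l6 was highest after 24 h of rechallenge at 1 week (138 ± 21.7 CPM, mean ± SD, n = 3) and at 2 weeks (114 ± 7.1 CPM), which overlapped. Naive cells at 24 h came next (81.7 ± 5.94 CPM) with no overlap to either side. The rechallenge at 3 weeks had rank 9 of the 15 groups (36.7 ± 6.84 CPM), and the 4 control groups were last, from 8.94 ± 2.01 to 10.8 ± 4.05 CPM and all overlapping. Isg15 had the same pair of groups on top (9.99 ± 2.85 and 8.29 ± 1.48 CPM), and so did Herc6 (34 ± 2.63 and 32.2 ± 1.33 CPM), Usp18 (13.7 ± 2.11 and 7.23 ± 3.22 CPM) and Ubd (27.1 ± 10.1 and 18.8 ± 2.29 CPM). Uba7 differed in that the 3-week rechallenge had rank 3 (19.9 ± 3.79 CPM), and each of its 15 groups overlapped the next lower one. Herc6 at 24 h after 3 weeks (9.46 ± 3.31 CPM) stood among the controls.

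In CT26, the 3 groups at 3 weeks of IFNγ were within the 6 highest for each of the 5 genes. Usp18 ran from 107 ± 23.4 CPM in naive cells at 24 h through 87.7 ± 2.03 CPM at 24 h and 84.3 ± 9.5 CPM without rechallenge after 3 weeks, and these neighbours overlapped. All 3 Usp18 groups at 2 weeks (20.8 ± 6.47, 25.2 ± 1.71 and 36.9 ± 1.67 CPM for none, 2 h and 24 h of rechallenge) stood below all 3 groups at 1 week. Ube2l6 had 5 groups between 400.1 ± 62.9 and 465 ± 27.5 CPM, the 4 groups at 24 h and the 3-week group without rechallenge, each overlapping the next. Herc6 and Isg15 were likewise high in the 3-week group without rechallenge (44.4 ± 5.93 and 23.2 ± 4.3 CPM), and the 2-week group without rechallenge stood lower (19.7 ± 2.8 and 5.17 ± 2.73 CPM). Uba7 ran from 0.226 ± 0.392 CPM in the 1-week controls to 9.81 ± 2.33 CPM at 24 h after 3 weeks. Ubd was read once, in the first sample at 24 h after 1 week.

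Over the 15 group means of log2 CPM Pearson's r between pairs of members ran from 0.64 to 0.97 in YUMM2.1, and in CT26 from 0.86 to 0.96. These are descriptions, since every value of a gene comes from the same libraries and groups. The 3 genes most like Ube2l6 were Psmb10 (r = 0.99), Psme2 (r = 0.98) and Gbp8 (r = 0.98) in YUMM2.1 and Psme2 (r = 0.99), Psmb10 (r = 0.98) and Ifitm3 (r = 0.98) in CT26. Psmb10 is an immunoproteasome subunit and Psme2 a proteasome activator subunit, and both lines named them. Most like Usp18 were Ifit3b (r = 0.96), Wars (r = 0.96) and Serpina3f (r = 0.96) in YUMM2.1 and the antiviral genes Ifi44 (r = 0.98), Oas3 (r = 0.98) and Oasl1 (r = 0.98) in CT26. For Isg15 they were Il18bp (r = 0.97), Idnk (r = 0.97) and Ifit3b (r = 0.96) in YUMM2.1 and Phf11d (r = 0.98), Sp100 (r = 0.98) and Isg20 (r = 0.97) in CT26, for Uba7 Lgals8 (r = 0.91), Mlkl (r = 0.91) and Nmi (r = 0.91) and Zbp1 (r = 0.98), Gbp4 (r = 0.97) and Ly6a (r = 0.97), and for Herc6 Ly6a (r = 0.91), Lap3 (r = 0.91) and Isg15 (r = 0.90) and Shisa5 (r = 0.97), Tbrg1 (r = 0.97) and Ube2l6 (r = 0.96). Those of Ubd, in YUMM2.1 alone, were Gbp3 (r = 0.97), Apol9a (r = 0.97) and Insl6 (r = 0.97).

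The other genes of the pathway were read from lists, also chosen with earlier results of these data known. A list of 18 ISG15 and FAT10 partners (other ligases and proteases, the FAT10 enzymes Uba6 and Ube2z, the interferon receptor subunits and binding proteins) had 15 tested genes in each line. In YUMM2.1 none was called after 24 h in naive cells or after 3 weeks of IFNγ by edgeR, DESeq2 called 1 and 0, and the medians were -0.02 and 0.18. At an unadjusted p under 0.05 there were 2 and 1 partners, against 673 and 1011 of 9589 genes. In CT26, 1 of 15 rose after 24 h and 4 of 15 after 3 weeks by edgeR, against 2.04% and 7.23% of all genes, and DESeq2 called 1 and 3, with medians of 0.10 and 0.48 beside -0.02 and 0.02 over all genes. Stat2, the transcription factor that brings Usp18 to the type I interferon receptor, rose both times (3.14 ± 0.55, edgeR adjusted p = 1.3e-05, and 3.86 ± 0.57, edgeR adjusted p = 1.3e-07). At 3 weeks the others were Trim25, a ubiquitin and ISG15 ligase (2.08 ± 0.61, edgeR adjusted p = 0.021), Arih1, a ligase that works with the same E2 family (1.73 ± 0.56, edgeR adjusted p = 0.0435), and Nub1, a FAT10-binding protein (0.87 ± 0.25, edgeR adjusted p = 0.025).

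A second list of 21 genes of ubiquitin, SUMO, NEDD8, UFM1 and URM1 conjugation was tested in full in both lines. None was called after 24 h in naive cells of either line or after 3 weeks in YUMM2.1 by edgeR, and DESeq2 called 0, 0 and 0. At an unadjusted p under 0.05 there were 1, 4 and 3, against 673 of 9589, 971 of 8516 and 1011 of 9589 genes. After 3 weeks in CT26, where 7.23% of all genes were called, 2 of 21 were lower: Sumo2, a SUMO modifier (-0.45 ± 0.11, edgeR adjusted p = 0.00969), and Rps27a, which encodes ubiquitin fused to a ribosomal protein (-0.53 ± 0.15, edgeR adjusted p = 0.0263). Elsewhere within the lines, the partners had 1 of 15 higher in YUMM2.1 at 2 h and 2 of 15 at 24 h of rechallenge after 1 week, against 0.615% and 1.42% of all genes. In CT26 they had 1 higher in 3 weeks minus 2 weeks (3.17% of all genes) and 1 lower each in the change of the 24 h response (1.2%) and in the level at 24 h after 3 weeks against naive cells (2.48%). The second list had 1 of 21 higher in YUMM2.1 at 24 h after 1 week (1.42% of all genes), and in CT26 1 higher in the control drift (0.916%) and 1 lower in 3 weeks minus 2 weeks (3.17%). Between the untreated lines, where 46% of genes were called, 3 of 16 partners were higher and 1 lower in YUMM2.1, and 10 of 21 genes of the second list were higher and 3 lower. The medians of the second list were 0.08 after 24 h and -0.14 after 3 weeks in CT26, and -0.06 and -0.10 in YUMM2.1.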

How the data were processed

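RNA of 90 mouse samples (45 YUMM2.1, 45 CT26) was sequenced by 3′ digital gene expression. The authors deposited 1 table of raw counts per gene, made with Salmon 0.13.1 on mm10 per the submitters' processing notes, with tximport per the methods. The annotation, any use of molecular identifiers and any rounding are not given in the sources used here. All 90 samples of the table were kept. The methods state that some samples of each line were set aside as outliers before the study's own tests without naming them, so they are among the 90 here. Of 53697 Ensembl identifiers, 53668 matched a symbol. A table of 3′ counts measures reads near the transcript end, so genes were compared between groups and not with each other, and intervals and floors cover counting error only.

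Counts were tested with edgeR 4.0.16 (R 4.3.3) by the quasi-likelihood test, with TMM scaling, filterByExpr by group and Benjamini-Hochberg adjustment over all genes tested (threshold 0.05). The 45 samples of a line were fitted together, and all 90 for differences between lines. CPM were computed with TMM-scaled library sizes. Standard errors are Wald errors of the fitted log2 change, and bounds against groups without a read use a floor of 3 counts per library. Counting intervals of ratios are exact at the 95% level. How often all genes separate without overlap between groups was not counted, so such separations are given as descriptions. Chi-square per degree of freedom over genes was 1.96 to 8.54 in the 90 replicate pairs, so none was counted as a duplicate. On simulated data for naive 24 h, 82.5% of 200 genes with a log2 change of 2 were recovered in YUMM2.1 (9252 genes) and 81% in CT26 (8146 genes). Of the changed genes above the median abundance, 96.6% and 98.1% were recovered, so recovery was lower among genes with fewer reads. False calls numbered 6 and 5.

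Some check and marker genes and 1 promoter motif are not reported here. The rule for naming took the 6 members in every comparison, and values of uncalled members are given in part. It also took the list genes called in naive 24 h or chronic 3 weeks of either line, and the 3 genes most correlated with each member. The members and lists were chosen with earlier results of these data known, and 2 comparisons per line (3 weeks minus 2 weeks of IFNγ, and 24 h after 3 weeks minus naive 24 h) were added after the levels were seen. Each fit was repeated with DESeq2 1.42.0 and its size factors, on unscaled library totals, unfiltered, on the compared groups alone, with the replicate number as a block, without each replicate number in turn, and without the 3 samples whose depth was below 25% of their line's median.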

Additional observations from a re-analysis of the deposited data

Results flagged for a closer look

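The 24 h response to IFNγ differed between naive cells and cells exposed for 3 weeks in 6 tests of the difference itself, 2 in YUMM2.1 and 4 in CT26. On the log2 scale, the response after 3 weeks minus the naive response was -3.54 for Ube2l6 and -7.03 for Ubd in YUMM2.1, the latter depending on the prior count since the naive controls had no Ubd read. In CT26 it was -2.84 for Isg15, -2.71 for Ube2l6, -2.47 for Herc6 and -3.84 for Usp18. The edgeR adjusted p of the 6 ran from 9.6e-14 to 0.00247. In CT26 the 3-week samples without rechallenge were themselves at raised levels, and these samples enter each of the 4 differences.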

How the results depend on the processing

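Of the 47 calls of a member in a comparison, 24 held under every alternative run that tested the gene. The other 23 were lost under at least 1, and no called value changed sign. Among the 24, Ubd in YUMM2.1 naive 24 h and Usp18 between the untreated lines were tested in 8 of the 9 alternatives. With only the compared groups in the fit they were not tested, so those 2 calls were absent there. All 47 held without the low-depth samples. With only the compared groups in the fit, and so fewer samples behind the spread, the members called numbered 1 in YUMM2.1 naive 24 h, 0 in chronic 1 week, 1 in chronic 2 weeks, 3 at 24 h after 1 week, 1 at 24 h after 2 weeks and 1 in the change of the 24 h response, 1 in CT26 chronic 2 weeks and 1 at 24 h after 1 week, and 1 between the untreated lines. Without a filter on low counts they numbered 3 in YUMM2.1 at 24 h after 1 week and 1 after 2 weeks. With library totals alone they numbered 1 in YUMM2.1 at 24 h after 2 weeks and 1 in CT26 at 2 h after 1 week. With only the compared groups, Isg15 and Uba7 between the untreated lines were, like Usp18 there, not tested. The same held for Ubd in YUMM2.1 chronic 1 and 2 weeks and in the change of the 24 h response. It also held for Uba7 in CT26 naive 24 h and chronic 3 weeks. Those calls were absent there because the genes were not tested, and the cause of the other shifts was not tested.

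Leaving out each replicate number gave 1 to 2 members in YUMM2.1 chronic 1 week, 1 to 2 in chronic 2 weeks, 1 to 2 at 24 h after 1 week, 0 in each case after 2 weeks, 1 to 2 in the change of the 24 h response and 0 to 1 in 24 h after 3 weeks against naive cells. In CT26 it gave 1 to 2 in chronic 2 weeks, 0 to 1 at 2 h after 1 week, 1 to 2 at 24 h after 1 week, 0 to 1 after 2 weeks and 1 to 3 in 3 weeks minus 2 weeks.

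Changes of sign were seen for 4 values, none of them called. Herc6 in CT26 at 24 h after 3 weeks was 0.00127 with DESeq2, 0.0125 without a filter, 0.0443 without the low-depth samples and -0.12 to 0.17 without one replicate number. The last range was -0.22 to 1.35 for Uba7 in CT26 at 24 h after 3 weeks against naive cells, -0.16 to 0.70 for Ube2l6 between the lines at 3 weeks and -0.51 to 0.56 for Herc6 between the untreated lines.

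Deviations of samples with the same replicate number had a median r of 0.000491 in YUMM2.1 and 0.00605 in CT26. For samples of different numbers it was 0.00272 and -0.00351. The r was over 0.1 in 24 and 44 of 315 same-number pairs. Among the 45 samples of each line, 13 in YUMM2.1 and 21 in CT26 correlated best with their own number. With the replicate block, 45 of the 47 calls held, and those of Herc6 in YUMM2.1 at 24 h after 1 and 2 weeks were lost, which left 1 member called at 2 weeks.

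Over all genes, DESeq2 and edgeR called numbers that differed by more than 1.5 times in 10 of the 36 comparisons. DESeq2 called 109 genes against 50 by edgeR in the YUMM2.1 control drift, 126 against 78 in that of CT26, 332 against 211 in CT26 at 24 h after 3 weeks against naive cells, and 18 against 1 in CT26 at 2 h after 3 weeks. In YUMM2.1 it called 21 against 11 in the change of the 2 h response, 17 against 7 in 3 weeks minus 2 weeks and 1 against 0 at 24 h after 3 weeks, and between the lines 20 against 9 for the naive 24 h response, 20 against 11 for 3 weeks and 1 against 0 for the naive 2 h response.

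Depth limits Isg15, Usp18 and Ubd in YUMM2.1 and Uba7 in CT26 most, where each control group of 3 samples held 0 to 6 reads.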
